A study of Mus musculus with 48 samples.

Results

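Solute carriers are the membrane proteins that move sugars, amino acids, fatty acids, bile acids, metal ions, nucleotides and many other small molecules across cell membranes, by exchange, by facilitated diffusion or by coupling to an ion gradient. Some act at the cell surface. Others work in the inner mitochondrial membrane (the Slc25 family) or in the endoplasmic reticulum and Golgi (much of the Slc35 family), and which carriers a cell makes sets which substrates it can take up, release or exchange. The genes described here are those whose symbol starts with Slc and a digit and that have a probe set (a group of short probes reading a transcript) with a single gene symbol in the platform's annotation, with Slc4a1, Slc34a2 and Slc8a1 left out. There were 148 such genes among 8251 genes with a probe set of 1 symbol. They had 180 probe sets, and 28 genes had more than 1. Where a gene had several, the one that was brightest on average over the 48 arrays stands for it. The symbols Slc4a1ap, Slc9a3r1 and Slc9a3r2 match the rule but name partner proteins rather than transporters.

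The 48 arrays, 1 per sample, measured RNA of 4 tissues (liver, heart, spleen and lung) from A/J and C57BL/6J, inbred mouse strains. Each tissue and strain was sampled at a time 2 and a time 1, which makes 16 groups of 3 arrays. What the times stand for is not stated in the labels. All mice were males of 3 months, described as littermates, and no treatment or altered gene is named. The labels do not say which arrays came from 1 mouse, so the p-values measure the spread between these samples. Values are the deposited log2 levels. They are set against each other within a probe set only, since probes differ in how strongly they bind.

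Replicate arrays correlated at 0.985 to 0.997, and the tissue labels matched their markers, with a lowest group median of 13.28 for hepatocyte genes in liver, 13.46 for cardiomyocyte genes in heart and 13.01 for lung epithelium genes in lung. The group medians of lymphocyte genes were 11.13 or more in spleen and 9.51 or less elsewhere. Cardiomyocyte genes averaged 9.53 to 10.64 in the lung arrays, against 7.94 to 8.12 in liver and 7.85 to 8.21 in spleen. The part of this signal in the differences between heart and lung was not tested. Exocrine pancreas genes averaged over 11 in 5 of the 12 spleen arrays (12.65 to 13.58) and at 13.36 in replicate 2 of C57BL/6J liver of time 2. All arrays of time 2 share 1 array run. The arrays of time 1 came in 3 other runs, of liver with lung, of spleen and of heart, so that time and run cannot be told apart, and the tissues were compared within time 2. At time 2 the Gapdh control read 1.05 to 1.96 log2 units higher at its 3′ than at its 5′ end in lung. This excess was 0.16 to 0.35 in liver, 0.08 to 0.23 in heart and 0.48 to 0.90 in spleen. Its part in the tissue differences was not tested. No filter on low values was used, so all 148 genes were tested. Their mean level over the 48 arrays spanned 5.11 to 12.17 with a median of 9.35, and 27 lay below 7.68, the 25th percentile of all probe sets, where a low signal cannot be told from background.

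The comparison of the 4 tissues asked where each carrier was most abundant. Enriched in a tissue means here that the gene's mean over the 6 arrays of time 2 lay at least 1 log2 unit above that of each other tissue, and that each of the 3 contrasts had an adjusted p under 0.05 (limma, Benjamini-Hochberg adjustment over 12422 probe sets). By this rule 20 solute carrier genes were enriched in liver (13.5%, against 4.11% of all probe sets), 6 in heart (4.05%, against 2.51%), 6 in lung (4.05%, against 2.25%) and 2 in spleen (1.35%, against 3.53%). In all, 34 genes, or 23% of the 148, were enriched somewhere, against 12.4% of all probe sets. Of 58 genes of other transporter families, ABC transporters, ATPases, aquaporins and organic anion polypeptides among them, 9 (15.5%) were. Each gene stands by its brightest probe set, while all probe sets include dimmer sets of a gene and sets with no single symbol. The shares given here and below thus compare unlike units, and the effect of this on them was not tested. The range between the highest and the lowest tissue mean had a median of 0.62 log2 units over the solute carrier genes and 0.56 over all probe sets. It exceeded 2 units in 28 genes (18.9%, against 11.6%) and stayed under 0.5 units in 57 genes, while 46.1% of all probe sets stayed under it. For 135 genes at least 1 pair of tissues differed (91.2%, against 92.8%). In tissue RNA, fewer cells of a type and less RNA per cell cannot be told apart.

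**Figure D1:**
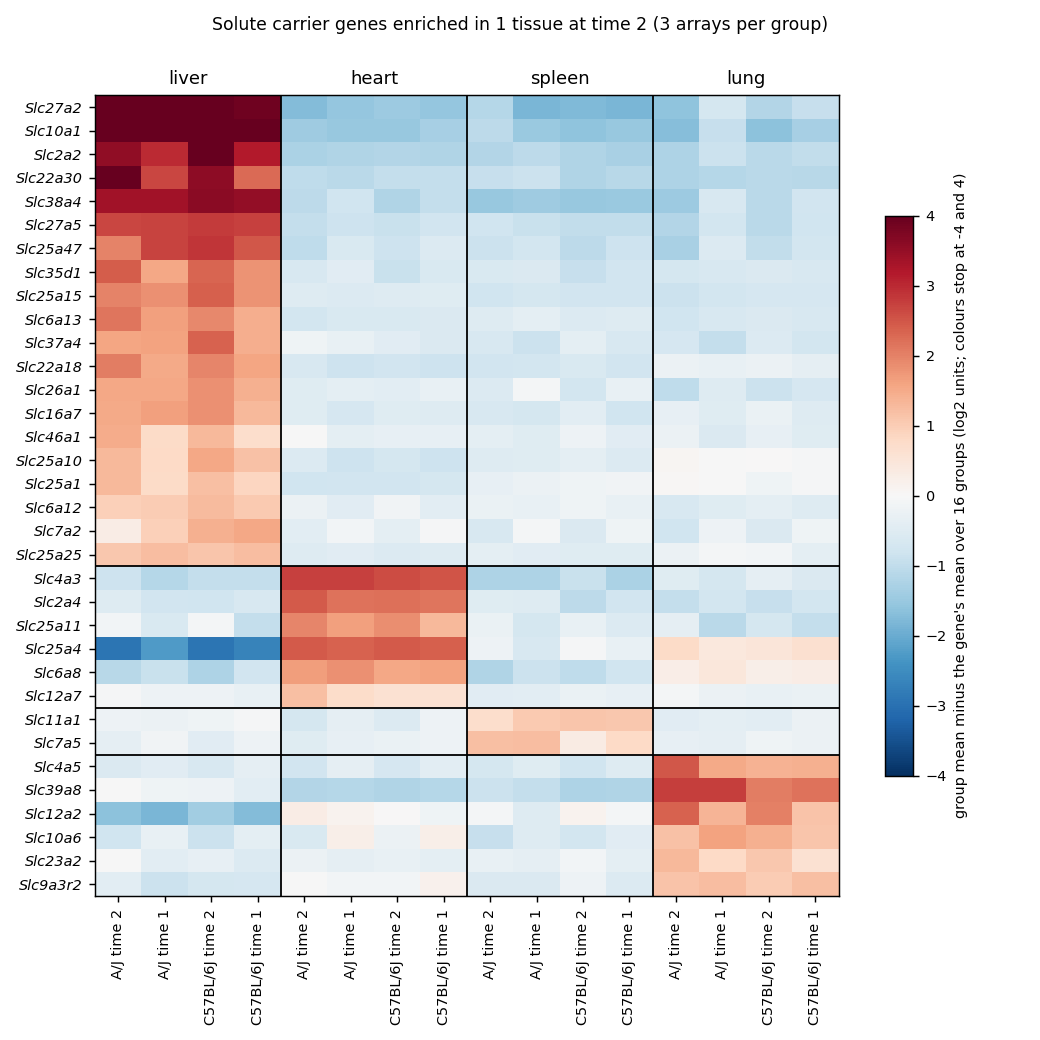
Mean log2 level of the 34 solute carrier genes enriched in a tissue (down) in the 16 groups of 3 arrays (across), drawn as the difference from the gene's own mean over the groups. The 20 liver genes form the block of high values in the liver columns, and the heart, lung and spleen genes form smaller ones.

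Liver held the most enriched genes, and they served bile acids, fatty acids, sugars, amino acids and mitochondrial exchange. Slc27a2, which activates very long chain fatty acids and takes part in their uptake, lay at 12.77, 13.15 and 13.25 in liver (lowest, median and highest of 6 arrays) and at 6.70 to 7.95 over the 18 arrays of the other tissues. Its liver mean was 57.6-fold above that of lung, the next tissue, a log2 difference of 5.85 (SE 0.171, adjusted p = 4.4e-19). Slc10a1, the sodium-taurocholate cotransporter that brings bile acids from blood into hepatocytes, lay at 12.59, 13.11 and 13.29 in liver and at 6.72 to 7.95 elsewhere. It was 53.1-fold above spleen, a difference of 5.73 (SE 0.113, adjusted p = 3.29e-22). The groups were far apart for both genes, with no overlap between liver and any other array. Of the other probe sets of Slc10a1, 1 was enriched in liver as well, by 4.76, and the other showed a difference of 0.54 and was not. Slc27a5, the bile acyl-CoA synthetase, lay at 11.50, 11.65 and 11.80 in liver against 7.67 to 8.34 elsewhere, 12.4-fold above spleen. For Slc27a2 and Slc10a1, and likewise for Slc2a2, Slc22a30, Slc16a7 and the lung gene Slc4a5, the mean of the next tissue lay below 7.68. The differences and folds of these genes are read as lower bounds and cannot be ranked against those of other genes. The limit of 7.68 is a percentile and not a measured background. Background can differ between probe sets, so the folds of other genes may be lower bounds as well.

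Of the 6 carriers of glucose and other hexoses, 1 was enriched in liver. This was Slc2a2, which encodes GLUT2, the transporter by which hepatocytes take up and release glucose. It lay at 10.47, 10.92 and 11.64 in liver and at 5.81 to 6.27 in the other tissues, 31.0-fold above lung (log2 difference 4.95, SE 0.101, adjusted p = 4.92e-22). Slc37a4, which carries glucose 6-phosphate into the endoplasmic reticulum for glucose release, lay at 11.95, 12.48 and 13.02 in liver against 9.74 to 10.44 elsewhere, 4.92-fold above heart. Slc35d1, an endoplasmic reticulum carrier of UDP-sugars, lay at 11.94, 12.16 and 12.42 in liver against 8.73 to 9.31 elsewhere, a difference of 3.02 from lung. In each of the 3 genes every liver array exceeded every array of the other tissues.

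Of the amino acid carriers enriched in liver, Slc38a4 had the widest gap. This sodium-coupled carrier of neutral amino acids lay at 13.64, 13.72 and 13.99 in liver and at 8.61 to 9.33 elsewhere, 24.3-fold above heart (log2 difference 4.61, SE 0.0803, adjusted p = 3.22e-23). Slc7a2, a carrier of arginine and lysine, stood 1.27 above heart but 0.72 in A/J alone, under the limit, and its liver arrays, from 9.33 to 10.77, differed by strain as described below. Slc6a13 and Slc6a12, which take up GABA, taurine or betaine, stood 2.55 above spleen and 1.29 above heart. Slc22a30, of the organic ion transporter family, lay at 10.21, 10.89 and 11.45 in liver against 5.54 to 6.31 elsewhere, a 28.6-fold difference from heart. The annotation gives a neighbouring probe set to both Slc22a30 and Slc22a28, so a signal shared by such related genes was not tested.

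Of the 20 mitochondrial carriers 5 were enriched in liver (4.11% of all probe sets were), 2 in heart (2.51%) and none in spleen (3.53%) or lung (2.25%). Their tissue range had a median of 1.26 log2 units, against 0.56 over all probe sets. Slc25a47, a liver carrier of the inner mitochondrial membrane, lay at 12.01, 12.81 and 13.34 in liver against 8.90 to 9.60 elsewhere, 10.3-fold above heart. Slc25a15, the ornithine carrier of the urea cycle, stood 2.68 above heart. Slc25a10, the dicarboxylate carrier, Slc25a1, the citrate carrier that feeds lipid synthesis, and Slc25a25, an ATP-magnesium/phosphate carrier, stood 1.38, 1.31 and 1.26 above lung. A second probe set of Slc25a1 stood 0.69 above lung and was not enriched. The remaining liver genes were Slc22a18, Slc26a1 (a sulfate exchanger), Slc16a7 (a monocarboxylate transporter) and Slc46a1 (the proton-coupled folate transporter), with differences of 1.58 to 2.22. Over all 34 enriched genes the largest adjusted p of the contrast with the next tissue was 1.27e-10.

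**Figure D2:**
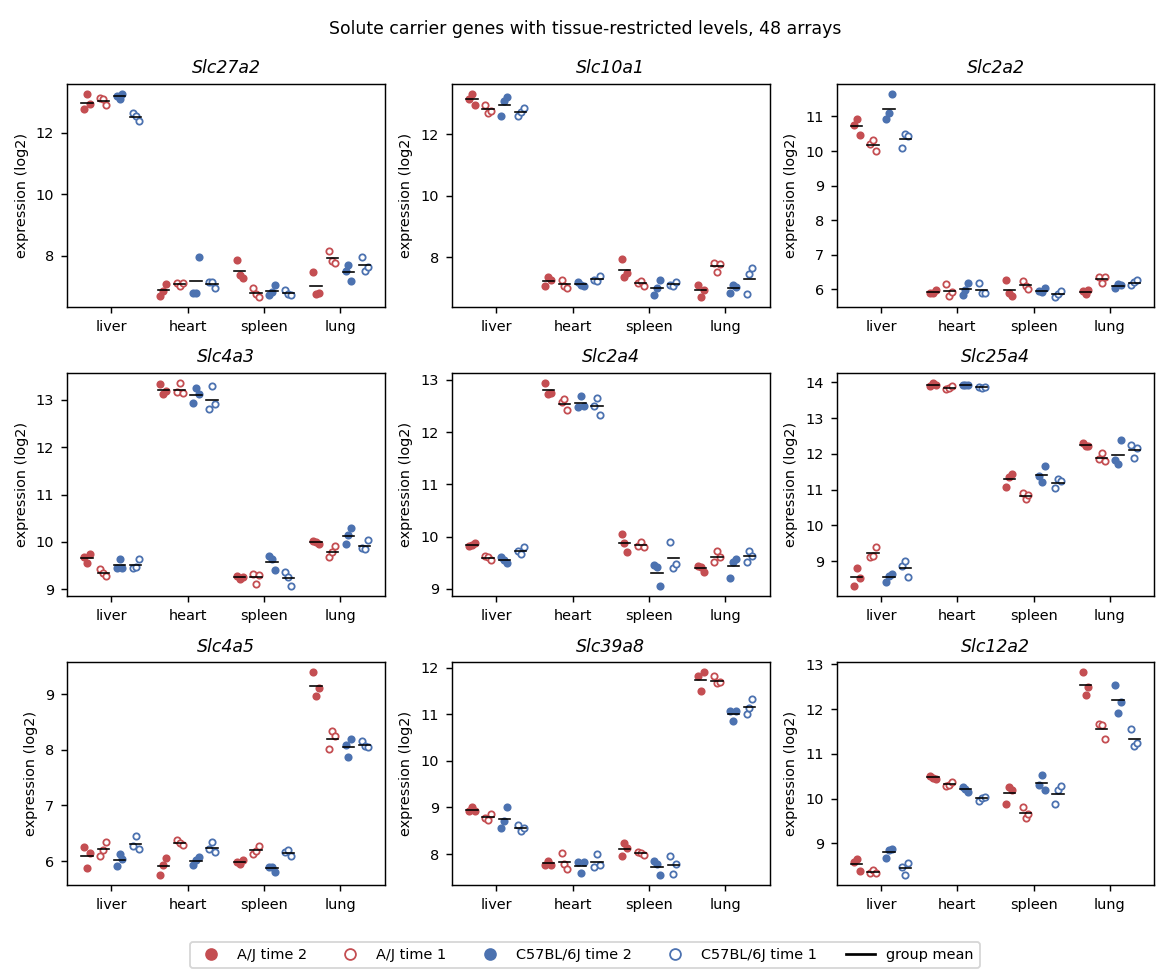
Log2 level of 9 solute carrier genes in each of the 48 arrays, by tissue, strain and time, with a line at each group mean; each panel has its own scale. Slc27a2, Slc10a1 and Slc2a2 stand high in liver, Slc4a3, Slc2a4 and Slc25a4 in heart, and Slc4a5, Slc39a8 and Slc12a2 in lung.

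The promoters of the liver genes can be read beside these levels. RefSeq promoters of build GRCm38.p6 were at hand for 122 of the 148 genes (173 promoters), and the 250 bases before each start were searched on both strands for TATAAA, the core of the TATA box. It was found in 4 of 32 promoters of liver-enriched genes (12.5%), in 6 of 141 promoters of the other solute carrier genes (4.26%) and in 12.4% of all promoters in the table. GTTAAT, the half-site of the hepatocyte factor HNF1, was in 3.12%, 4.26% and 6.43% of these sets, and CAAAGTNCA, the element of HNF4, in none, 2.13% and 1.19%. A match is a run of letters and not a measured site. The following stretches show where the TATAAA letters fall, in capitals, in a sugar phosphate carrier and in the bile acid carrier, 2 of the 4 genes that have them. In Slc37a4 (chr9:44398254-44398353, plus strand, the last 100 bases before the start) they begin 32 bases before the start. In Slc10a1 (chr12:80968784-80968883, minus strand, bases 178 to 79 before the start) they lie on the opposite strand, so that they read TTTATA here, and begin 128 bases before the start.
Slc37a4: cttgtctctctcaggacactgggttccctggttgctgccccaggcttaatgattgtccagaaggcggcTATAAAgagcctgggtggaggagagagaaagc
Slc10a1: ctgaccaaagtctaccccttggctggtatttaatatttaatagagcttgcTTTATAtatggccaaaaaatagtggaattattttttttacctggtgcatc

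In heart, the enriched carriers moved anions, glucose, energy metabolites and creatine. Slc4a3, a chloride/bicarbonate exchanger, lay at 12.93, 13.15 and 13.32 in heart and at 9.22 to 10.29 elsewhere, 8.49-fold above lung (log2 difference 3.09, SE 0.0696, adjusted p = 1.54e-20). Slc2a4 encodes GLUT4, the insulin-responsive glucose transporter of muscle and fat. It lay at 12.49, 12.72 and 12.93 in heart and at 9.06 to 10.04 elsewhere, 7.90-fold above liver (difference 2.98, SE 0.0772, adjusted p = 3.89e-20). Its other probe set showed a difference of 0.14 and was not enriched. Neither gene had a heart array that overlapped another tissue.

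Both mitochondrial carriers of the heart serve energy exchange. Slc25a4, the ADP/ATP exchanger, lay at 13.88, 13.93 and 13.97 in heart, 11.72, 12.21 and 12.38 in lung, 11.07 to 11.65 in spleen and 8.31 to 8.81 in liver. Its heart mean was 3.52-fold above lung (difference 1.82, SE 0.102, adjusted p = 2.25e-13), and the 4 tissues did not overlap. Slc25a11, the oxoglutarate/malate carrier, was 3.98-fold above liver. Slc6a8, which takes up creatine, was 2.56-fold above lung by its main probe set. By the mean of its probe sets the difference was 0.82, under the limit. Slc12a7, a potassium-chloride cotransporter, was 2.02-fold above liver (difference 1.01), and fell under the limit of 1 without any of 4 arrays, namely replicate 1 of A/J or C57BL/6J liver, replicate 3 of A/J heart or replicate 2 of C57BL/6J heart, all of time 2.

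In lung, the enriched genes carried bicarbonate, metal ions, salt, steroid sulfates and vitamin C. Slc4a5, a sodium bicarbonate cotransporter, lay at 7.88, 8.58 and 9.39 in lung and at 5.75 to 6.26 elsewhere, 5.84-fold above liver (log2 difference 2.55, SE 0.0790, adjusted p = 1.47e-18). Slc39a8, a zinc and manganese importer, lay at 10.86, 11.29 and 11.90 in lung and at 7.55 to 9.01 elsewhere, 5.74-fold above liver (difference 2.52, SE 0.0830, adjusted p = 4.71e-18). No lung array of either gene overlapped another tissue, and both genes also differed between strains. Slc12a2, the sodium-potassium-chloride cotransporter that loads epithelial cells with chloride, lay at 11.91, 12.40 and 12.82 in lung, 10.16 to 10.51 in heart, 9.89 to 10.54 in spleen and 8.37, 8.65 and 8.88 in liver. Heart and spleen overlapped, lung stood 4.10-fold above heart, and liver lay below all. Slc10a6, a carrier of sulfated steroids, Slc23a2, a vitamin C transporter, and the scaffold protein gene Slc9a3r2 were 3.34-, 2.56- and 2.21-fold above the next tissue.

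In spleen, 2 genes passed, both close to the limit of 1. Slc11a1, which pumps metal ions out of the phagosomes of macrophages, lay at 9.99, 10.31 and 10.51 in spleen against 9.13 to 9.23 in liver, a difference of 1.09 (SE 0.0541, adjusted p = 1.19e-14). In A/J alone it was 0.93. Slc7a5, the light chain of the carrier of large neutral amino acids that pairs with Slc3a2, lay at 10.79, 11.46 and 12.09 in spleen against 10.35, 10.48 and 10.59 in lung, a difference of 1.02 (SE 0.0699, adjusted p = 1.1e-11). The Slc7a5 call was lost without replicate 1 of A/J spleen or replicate 1 or 3 of C57BL/6J spleen of time 2, in C57BL/6J alone and without the arrays with pancreas genes. The count of spleen genes was 1 without replicate 3 of C57BL/6J.

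The reverse pattern, a mean at least 1 log2 unit below each other tissue, was found for 5 genes in liver (3.38%, against 1.36% of all probe sets) and for none in heart (0.580% of all probe sets), spleen (0.596%) or lung (0.0322%). They were Slc12a2, Slc25a4, Slc25a36 (a mitochondrial carrier of pyrimidine nucleotides), Slc41a1 (a magnesium carrier) and Slc44a2 (a choline transporter-like protein). Slc44a2 lay at 7.07, 7.17 and 7.43 in liver against 9.10 to 9.58 in heart, the next lowest tissue. Slc25a36 lay at 7.97, 8.18 and 8.35 in liver against 9.92 to 10.29 in heart. At time 1 the enrichment rule was met by 19 of the 20 liver genes and 5 of the 6 heart genes. Slc25a1, at 0.84, and Slc12a7, at 0.91, did not meet it. All of the enriched spleen and lung genes met it, although runs and tissues were then mixed. Slc17a1 and Slc4a4 in liver, and Slc16a1 and Slc27a1 in heart, were gained at time 1. The share of all enriched probe sets that met the rule at time 1 was not counted. These counts are thus not read as particular to solute carriers.

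The strain comparison asked which carriers differed between A/J and C57BL/6J within a tissue, over 6 arrays per strain with time as an additive term. Both strains share an array run within each tissue and time. In liver 7 solute carrier genes differed (4.73%, against 4.07% of all probe sets), 4 of them higher in A/J and 3 lower, while 1.54% of all probe sets were higher and 2.53% lower. In heart 8 differed (5.41%, against 7.48%), 6 higher in A/J and 2 lower, while 4.57% of all probe sets were higher and 2.91% lower. In spleen 23 differed (15.5%, against 12.7%), 18 higher in A/J and 5 lower, while 6.05% of all probe sets were higher and 6.67% lower. In lung 9 differed (6.08%, against 5.22%), 6 higher in A/J and 3 lower, while 2.70% of all probe sets were higher and 2.52% lower. At least 1 tissue differed for 34 genes, or 23%, against 22.6% of all probe sets, so the share of solute carriers with a strain difference was near that of all probe sets. The median difference over the 148 genes was between -0.01 and 0.03 in the 4 tissues, and between -0.02 and 0.02 over all probe sets. All 47 calls had the same sign at both times. As the calls rest on the arrays of both times together, this is no independent check. The sizes of the called differences ran from 0.18 to 1.06 log2 units. Of the 34 genes 24 were called in 1 tissue alone, which does not show that the other tissues did not differ. This split was not counted over all probe sets, so it is not read as particular to solute carriers. The count in liver was 4 without replicate 3 of A/J liver of time 1. That in heart was 5 without replicate 1 or 3 of A/J heart of time 2. In lung it was 5 without replicate 2 of A/J lung of time 1 and 16 without replicate 1 of C57BL/6J lung of time 1.

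**Figure D3:**
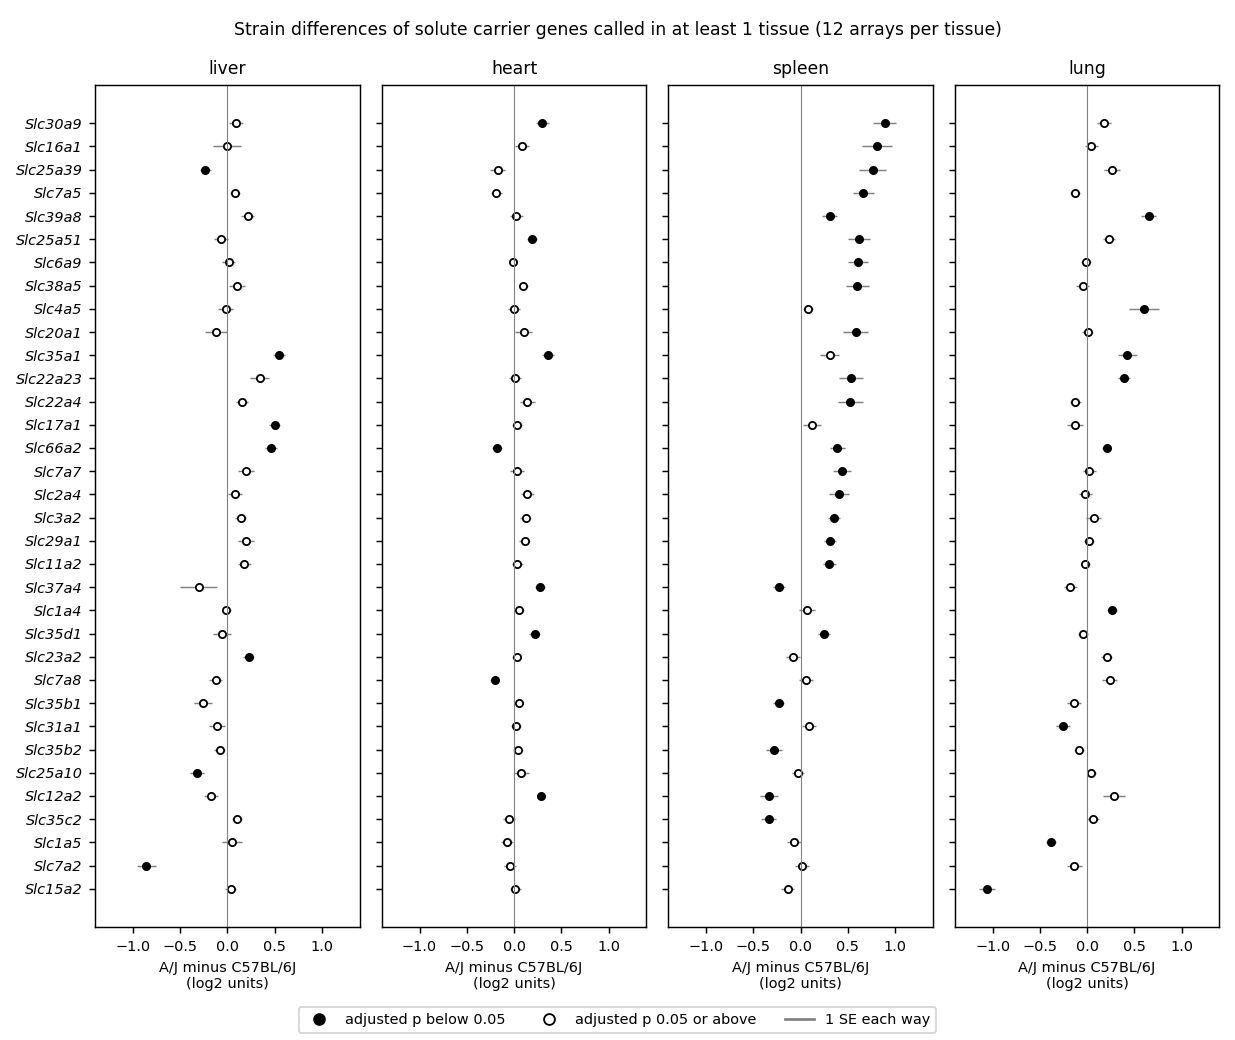
Strain difference (A/J minus C57BL/6J, log2) of the 34 solute carrier genes called in at least 1 tissue, with a panel per tissue; bars are 1 SE and filled points have an adjusted p below 0.05. Spleen has most filled points (23), mainly to the right of 0, and Slc15a2 in lung is the farthest from 0, at -1.06.

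The widest strain difference was that of Slc15a2 in lung, a proton-coupled importer of short peptides on chromosome 16. At time 2 it lay at 6.87, 7.05 and 6.96 in A/J lung, against 8.30, 7.74 and 8.04 in C57BL/6J lung. Time 1 gave 6.97, 7.11 and 7.05 in A/J lung, against 8.25, 7.98 and 8.05 in C57BL/6J lung. The A/J median was 7.01 and the C57BL/6J median 8.05 over 6 arrays each, and the fitted log2 difference was -1.06 (SE 0.0832, adjusted p = 3.57e-06), or 2.09-fold. No array overlapped between the strains. In liver, heart and spleen every array of both strains read 6.65 to 7.17, so the A/J lung lay within the range of the tissues with the low signal and the C57BL/6J lung above it. The A/J values lie below 7.68, so the size of this difference is read as a lower bound. Slc15a2 was the 1 solute carrier gene with a called difference of at least 1 log2 unit in any tissue. Of all probe sets 0.298% had one in liver, 0.217% in heart, 1.34% in spleen and 0.314% in lung.

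Other lung genes followed with smaller differences. The importer Slc39a8 lay at 11.50, 11.75 and 11.90 in A/J lung (lowest, median, highest of 6 arrays), against 10.86, 11.08 and 11.33 in C57BL/6J lung, and was 1.57-fold higher in A/J (difference 0.65, SE 0.0807, adjusted p = 0.00022). Slc1a5, a neutral amino acid exchanger that carries glutamine, lay at 8.94, 8.99 and 9.15 in A/J lung, against 9.27, 9.41 and 9.44 in C57BL/6J lung (difference -0.38, SE 0.0540, adjusted p = 0.000651). Slc22a23, an orphan of the organic ion family, was 0.39 higher in A/J lung (adjusted p = 0.00224). The strains did not overlap for any of these 3 genes. Slc1a4, a carrier of alanine, serine and cysteine, was 0.26 higher in A/J lung (adjusted p = 0.012), with ranges of 9.79 to 10.11 in A/J and 9.64 to 9.81 in C57BL/6J that overlapped slightly. The calls of Slc4a5 (0.60, adjusted p = 0.0377), Slc35a1 (0.43, 0.0215), Slc66a2 (0.21, 0.0200) and Slc31a1, a copper importer (-0.25, 0.0495), were lost without any of 7, 4, 5 and 10 of the 12 arrays, with adjusted p of up to 0.0931, 0.0587, 0.0555 and 0.117. A second probe set of Slc31a1 showed -0.12 in lung and was not called. At time 1 the 6 neutrophil genes read 9.68 to 10.07 in A/J lung, against 10.31 to 10.89 in C57BL/6J lung. The 6 measured lymphocyte genes of a list of 8 then read 9.30 to 9.33 in A/J lung, against 9.45 to 9.53 in C57BL/6J lung. Neither list overlapped at time 1 and both did at time 2, and their part in the lung differences was not tested.

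**Figure D4:**
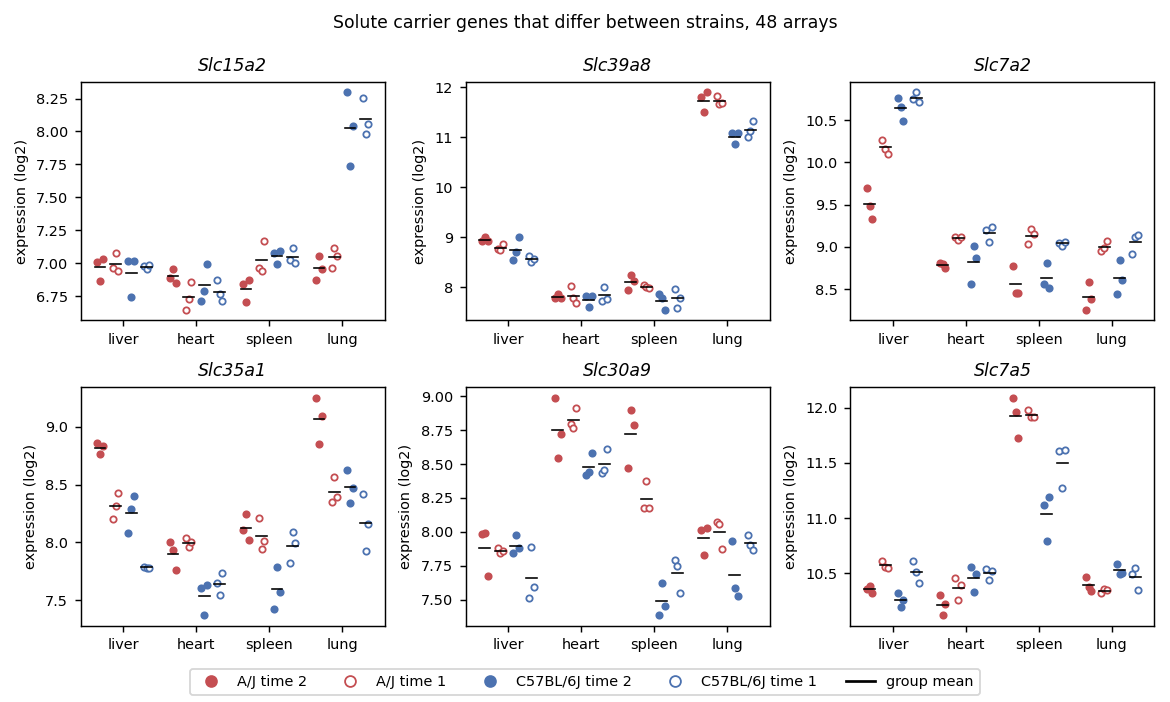
Log2 level of 6 solute carrier genes with a strain difference in each of the 48 arrays, by tissue, strain and time, with a line at each group mean; each panel has its own scale. A/J lies below C57BL/6J for Slc15a2 in lung and for Slc7a2 in liver, and above it for Slc39a8 in lung and for Slc30a9 and Slc7a5 in spleen.

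In liver the arginine and lysine carrier Slc7a2, on chromosome 8, had the widest difference. At time 2 it lay at 9.70, 9.49 and 9.33 in A/J liver, against 10.77, 10.65 and 10.49 in C57BL/6J liver. At time 1 it lay at 10.26, 10.16 and 10.10 in A/J liver, against 10.75, 10.83 and 10.71 in C57BL/6J liver. The A/J mean was 0.86 lower (SE 0.0999, adjusted p = 0.000111), a 1.81-fold difference with no overlap between strains. The anion carrier Slc17a1, which handles phosphate and urate, was 0.50 higher in A/J liver, at 7.51, 7.82 and 8.05 against 7.05, 7.32 and 7.46 in C57BL/6J liver (SE 0.0602, adjusted p = 0.00014, no overlap). Its second probe set differed by 0.17 (adjusted p = 0.285).

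Slc35a1, which carries CMP-sialic acid into the Golgi for the sialylation of glycans, was the 1 gene called in 3 tissues with 1 sign throughout. In liver it lay at 8.20, 8.60 and 8.86 in A/J, against 7.78, 7.93 and 8.41 in C57BL/6J (difference 0.55, SE 0.0613, adjusted p = 8.58e-05). In heart it lay at 7.76, 7.98 and 8.04 in A/J, against 7.37, 7.62 and 7.74 in C57BL/6J (difference 0.36, SE 0.0586, adjusted p = 0.00133). The strains overlapped in liver over the 2 times together and not in heart. In lung the difference was 0.43, as given above, and in spleen 0.31 with an adjusted p of 0.0601, which missed the threshold. No solute carrier gene was called in all 4 tissues in 1 direction (0.411% of all probe sets were), and at an unadjusted p below 0.05 Slc35a1 alone was.

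The remaining liver calls were Slc66a2 (0.46 higher in A/J, adjusted p = 0.000505), the dicarboxylate carrier Slc25a10 (-0.32, 0.0192), the vitamin C transporter Slc23a2 (0.22, 0.0359) and the mitochondrial glutathione carrier Slc25a39 (-0.23, 0.0293). The strains overlapped for all 4. Slc25a10 reached an adjusted p of 0.0512 without replicate 3 of A/J liver of time 1. Slc23a2 and Slc25a39 were each lost without any of 8 of the 12 arrays, with adjusted p of up to 0.0921 and 0.0812.

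In heart the differences were small. The salt cotransporter Slc12a2 lay at 10.28, 10.41 and 10.51 in A/J heart, against 9.95, 10.10 and 10.25 in C57BL/6J heart (difference 0.29, SE 0.0418, adjusted p = 0.000539). The glucose 6-phosphate carrier Slc37a4 lay at 10.12, 10.28 and 10.44 in A/J heart, against 9.93, 10.02 and 10.05 in C57BL/6J heart (difference 0.27, SE 0.0515, adjusted p = 0.00373). The strains did not overlap for either. Slc30a9, a mitochondrial zinc exporter, was 0.30 higher in A/J heart (adjusted p = 0.0156) and Slc7a8, a neutral amino acid carrier, 0.21 lower (difference -0.21, adjusted p = 0.00999), with overlap in both. The calls of Slc35d1 (0.22), Slc25a51, the mitochondrial NAD carrier (0.19), and Slc66a2 (-0.18) were lost without any of 7, 8 and 10 of the 12 heart arrays, with adjusted p of up to 0.0706, 0.0829 and 0.113. The second probe set of Slc25a51 was called in heart as well, at 0.27. The Gapdh control read over 1 log2 unit higher at its 3′ than at its 5′ end in replicates 1 and 3 of A/J heart of time 1. Without these arrays 12 heart genes were called, 6 of them among the 8, and the calls of Slc30a9 and Slc25a51 were lost. The share of all probe sets called without these arrays was not counted, so the rise is not read as particular to solute carriers. The 6 skeletal muscle markers averaged 10.14 to 10.27 in A/J heart, against 9.81 to 10.11 in C57BL/6J heart, and 6 of 8 erythroid markers 9.03 to 9.32 in A/J heart, against 9.37 to 9.64 in C57BL/6J heart, with no overlap in either list. The 5 smooth muscle markers (10.29 to 10.56 in A/J heart, against 9.97 to 10.34 in C57BL/6J heart) and the 7 macrophage markers (9.26 to 9.61 in A/J heart, against 9.54 to 9.80 in C57BL/6J heart) overlapped slightly. The 5 measured lung epithelium genes of a list of 8 read 9.61 to 10.1 in A/J heart, against 10.29 to 11.05 in C57BL/6J heart, at time 1, with no overlap. At time 2 they overlapped, at 9.385 to 9.567 in A/J heart and 9.337 to 10.39 in C57BL/6J heart. The part of these cells in the heart differences was not tested.

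Spleen held the most calls, and they spanned amino acids, metal ions, mitochondrial exchange, phosphate and nucleosides. The zinc exporter Slc30a9 lay at 8.47, 8.90 and 8.79 in A/J spleen, against 7.39, 7.62 and 7.45 in C57BL/6J spleen, at time 2. The values of time 1 were 8.18, 8.37 and 8.17 in A/J spleen, against 7.79, 7.75 and 7.55 in C57BL/6J spleen. The strains did not overlap, and the difference was 0.89 (SE 0.123, adjusted p = 0.000493), or 1.85-fold. Slc16a1, a transporter of lactate and other monocarboxylates, lay at 7.04, 7.25 and 7.95 in A/J spleen, against 6.23, 6.60 and 6.90 in C57BL/6J spleen (difference 0.81, SE 0.162, adjusted p = 0.00473), with no overlap. The C57BL/6J values and the A/J median lie below 7.68, so the size of this difference is read as a lower bound. The Slc16a1 call was lost in the time 1 arrays alone and without the spleen arrays with pancreas genes. The mitochondrial glutathione carrier Slc25a39 lay at 11.73, 12.38 and 12.68 in A/J spleen, against 11.26, 11.53 and 11.73 in C57BL/6J spleen (difference 0.76, SE 0.139, adjusted p = 0.00265). Its ranges met at 11.73.

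Both chains of the large neutral amino acid carrier were higher in A/J spleen. Slc7a5 lay at 11.72, 11.94 and 12.09 in A/J spleen, against 10.79, 11.23 and 11.62 in C57BL/6J spleen (difference 0.66, SE 0.108, adjusted p = 0.00129). Slc3a2, the heavy chain, was 0.36 higher (adjusted p = 0.00278). Neither overlapped between strains. Of the 20 amino acid carriers 4 were higher in A/J spleen and none lower, while 6.05% of all probe sets were higher and 6.67% lower. The others were Slc38a5, which carries glutamine and other neutral amino acids (0.60), and Slc7a7, the exchanger of cationic for neutral amino acids (0.44). Slc6a9, the glycine transporter GlyT1, lay at 11.64, 11.88 and 11.90 in A/J spleen, against 10.89, 11.20 and 11.69 in C57BL/6J spleen (difference 0.61, SE 0.104, adjusted p = 0.00164), with a slight overlap. The NAD carrier Slc25a51 was 0.62 higher (adjusted p = 0.00271), and its second probe set 0.54.

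Further genes higher in A/J spleen were the phosphate transporter Slc20a1 (0.58), Slc22a23 (0.53), the ergothioneine carrier Slc22a4 (0.53), the iron importer Slc11a2 (0.31), the nucleoside transporter Slc29a1 (0.31), Slc39a8 (0.31), Slc2a4 (0.41), Slc66a2 (0.39) and Slc35d1 (0.25). A second probe set was called for Slc11a2 (0.52) and showed no difference in this direction for Slc2a4 (-0.09) and Slc29a1 (-0.06). Of the 18 genes higher in A/J, 17 had the larger difference at time 2, but none passed the strain by time test in spleen. The same share was not counted over all probe sets, so it is not read as particular to solute carriers. In A/J spleen 5 genes were lower, 3 of them among the 8 grouped as carriers of the endoplasmic reticulum and Golgi. Of these 8, 1 (Slc35d1) was higher, while 6.67% of all probe sets were lower and 6.05% higher. Slc37a4 was grouped apart, as a sugar phosphate carrier. Slc35b1, an ATP/ADP exchanger of the endoplasmic reticulum, lay at 11.17, 11.37 and 11.43 in A/J spleen, against 11.46, 11.51 and 11.75 in C57BL/6J spleen (difference -0.23, adjusted p = 0.0167), with no overlap. Slc35c2 was 0.34 lower (difference -0.34, adjusted p = 0.0128). Slc12a2 (-0.33), Slc35b2, which carries the sulfate donor PAPS (-0.28), and Slc37a4 (-0.23) were lost without any of 7, 7 and 5 of the 12 arrays, with adjusted p of up to 0.0938, 0.0936 and 0.0625.

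Markers of other cells moved with strain in spleen. The 6 measured erythroid genes of a list of 8 (Alas2, Klf1, Epb42, Rhd, Rhag and Hemgn) had a summary level of 11.48 to 12.32 in the 6 A/J spleen arrays, against 9.22 to 11.41 in the 6 C57BL/6J spleen arrays. At time 2 this level was 12.04 to 12.32 in A/J spleen, against 9.22 to 9.83 in C57BL/6J spleen. At time 1 it was 11.48 to 11.73 in A/J spleen, against 10.21 to 11.41 in C57BL/6J spleen. The 7 macrophage genes read 11.13 to 11.38 in A/J spleen, against 11.67 to 12.04 in C57BL/6J spleen. The 6 measured lymphocyte genes of a list of 8 read 10.97 to 11.17 in A/J spleen, against 11.20 to 11.53 in C57BL/6J spleen. None of these 3 lists overlapped between strains. At time 2 the 8 hepatocyte genes read 9.27 to 10.10 in A/J spleen, against 8.13 to 8.97 in C57BL/6J spleen, also with no overlap. The 6 neutrophil genes, at 10.38 to 11.25 in A/J spleen against 9.34 to 10.52 in C57BL/6J spleen over both times, overlapped. The part of these markers in the spleen differences was not tested. Without the 5 spleen arrays with pancreas genes, 2 of the 23 genes passed the test, Slc30a9 (0.91, adjusted p = 0.0195) and Slc25a39 (0.85, adjusted p = 0.045), and 2.88% of all probe sets did. All 23 kept their sign, 20 had an unadjusted p below 0.05, and their differences were 1.07 times as large in the median.

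The strain by tissue test (an F test over the 48 arrays) asked whether the strain difference itself differed between tissues. It passed for 34 solute carrier genes (23%, against 18.5% of all probe sets). The 8 with the smallest p were Slc15a2, Slc7a5, Slc7a2, Slc66a2, Slc25a39, Slc6a9, Slc30a9 and Slc17a1. Slc15a2 differed by -1.06 in lung and by -0.14 to 0.03 in the other tissues. Slc7a5 differed by 0.66 in spleen and by -0.19 to 0.08 elsewhere, and Slc6a9 by 0.61 in spleen and by -0.01 to 0.01 elsewhere. Slc7a2 differed by -0.86 in liver and by -0.14 to 0.01 elsewhere. Each of these 4 genes was called in that 1 tissue alone. For Slc25a39 the sign turned, with A/J lower in liver (-0.23) and higher in spleen (0.76). Slc66a2 was higher in A/J liver, spleen and lung and lower in A/J heart (-0.18). Slc12a2 (0.29 in heart, -0.33 in spleen) and Slc37a4 (0.27 in heart, -0.23 in spleen) were likewise called in opposite directions in those tissues.

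A further test compared the strain difference of time 2 with that of time 1 (strain by time). It passed for 11 solute carrier genes in liver (7.43%, against 4.90% of all probe sets), where A/J minus C57BL/6J was more positive at time 2 for 2 genes (1.01% of all probe sets) and more negative for 9 (3.90%). It passed for 1 gene in lung (0.177%) and none in heart (0.386%) or spleen (0.209%). At an unadjusted p below 0.05 limma gave 35 in liver, 25 in lung, 11 in heart and 30 in spleen, and 24%, 18%, 10.7% and 19.6% of all probe sets. The liver count ranged from 2 to 14 when 1 array was left out. Without replicate 1 or 3 of A/J at time 2 it was 3 and 6, and without replicate 1 or 2 of A/J at time 1 it was 4 and 2. Without replicate 1 or 2 of C57BL/6J at time 2 it was 6 and 7, and without replicate 1 or 3 of C57BL/6J at time 1 it was 6 and 3. Heart had 2 calls without replicate 2 of A/J at time 1. Spleen had 5 without replicate 1 of A/J at time 2 and 1 without replicate 2 of C57BL/6J at time 1.

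Slc4a4, a sodium bicarbonate cotransporter, had the smallest p in liver. At time 2 it lay at 9.47, 9.54 and 9.81 in A/J liver, against 10.24, 10.27 and 10.12 in C57BL/6J liver. At time 1 it lay at 10.82, 10.78 and 10.55 in A/J liver, against 10.47, 10.28 and 9.98 in C57BL/6J liver. A/J was thus below C57BL/6J at time 2 (-0.61) and above it at time 1 (0.47), a change of -1.08 (SE 0.175, adjusted p = 0.00556), and the strains did not overlap at either time.

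The carnitine transporter Slc22a5 showed the same reversal. At time 2 it lay at 9.31, 9.37 and 9.57 in A/J liver, against 10.12, 9.95 and 9.69 in C57BL/6J liver. Time 1 gave 10.40, 10.40 and 10.28 in A/J liver, against 10.04, 9.97 and 9.77 in C57BL/6J liver. The strains did not overlap at either time, and the difference was -0.51 at time 2 and 0.43 at time 1, a change of -0.94 (SE 0.158, adjusted p = 0.00677). The mitochondrial carrier Slc25a47 lay at 12.01, 12.20 and 12.62 in A/J liver of time 2, against 13.34, 13.13 and 13.01 in C57BL/6J liver of time 2. At time 1 it overlapped between strains, at 12.86 to 13.10 in A/J liver and 12.48 to 13.10 in C57BL/6J liver. Its change was -1.08 (SE 0.231, adjusted p = 0.0201), lost without replicate 1 of A/J at time 2 or replicate 2 of A/J at time 1 (adjusted p up to 0.0605).

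**Figure D5:**
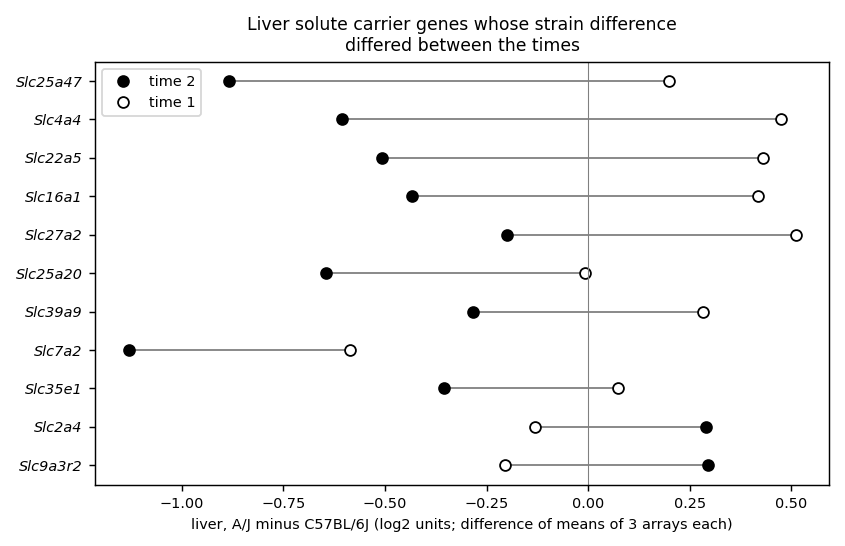
Strain difference in liver (A/J minus C57BL/6J, log2) at time 2 (filled) and at time 1 (open) of the 11 solute carrier genes that passed the strain by time test. For 9 genes the time 2 point lies left of the time 1 point, and for Slc2a4 and Slc9a3r2 it lies right of it.

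Values of 4 more liver genes that passed this test follow. Slc25a20, the carnitine-acylcarnitine exchanger of mitochondria, differed by -0.65 at time 2 and -0.01 at time 1. The monocarboxylate transporter Slc16a1 differed by -0.43 at time 2 and 0.42 at time 1, and the fatty acid gene Slc27a2 by -0.20 at time 2 and 0.51 at time 1. Slc7a2 was lower in A/J liver at both times, by more at time 2 (-1.13, against -0.59 at time 1). In lung Slc4a5 lay at 9.39, 8.96 and 9.10 in A/J, against 8.09, 7.88 and 8.20 in C57BL/6J, at time 2. Time 1 gave 8.02, 8.33 and 8.24 in A/J lung, against 8.16, 8.07 and 8.05 in C57BL/6J lung. The strains did not overlap at time 2 and did at time 1, where they differed by 0.10, and the change was 0.99 (adjusted p = 0.0246). This call was lost without any of 6 of the 12 arrays, namely replicate 1 of A/J and replicate 2 of C57BL/6J at time 2, and replicates 1 and 3 of both strains at time 1 (adjusted p up to 0.0888). Without replicate 3 of C57BL/6J lung at time 2 the lung count was 2. The excess of the Gapdh control's 3′ over its 5′ signal was 1.36 to 1.96 in A/J lung and 1.05 to 1.37 in C57BL/6J lung at time 2, and 0.66 to 0.93 in A/J lung and 0.64 to 1.08 in C57BL/6J lung at time 1, and its part in the lung values was not tested.

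Time 2 differed from time 1 for 78 genes in liver (50.3% of all probe sets did), 43 in heart (34.9%), 37 in spleen (31.9%) and 48 in lung (34.7%). In liver 32 were higher at time 2 and 46 lower (20.2% and 30.1% of all probe sets), in heart 12 and 31 (15.7% and 19.3%), in spleen 12 and 25 (13.0% and 18.9%), and in lung 24 and 24 (15.8% and 18.9%). Run and time cannot be told apart here. Slc22a30 had the largest rise in liver. It lay at 11.12, 11.45 and 10.77 at time 2, against 9.53, 9.87 and 9.61 at time 1, in A/J. C57BL/6J liver averaged 10.58 ± 0.40 at time 2 and 9.26 ± 0.40 at time 1 (SD, n = 3 each), and both strains together gave a difference of 1.38 (SE 0.155, adjusted p = 2.05e-05). The times did not overlap within a strain. Slc2a2 was 0.71 and Slc35d1 also 0.71 higher at time 2 in liver, and the phosphate cotransporter Slc34a1 was lower (-0.59).

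In heart Slc27a1, the fatty acid transport protein of muscle, had the largest fall. In A/J it lay at 10.50, 10.77 and 10.51 at time 2, against 11.93, 11.56 and 11.69 at time 1. In C57BL/6J it lay at 10.98, 11.01 and 11.10 at time 2, against 11.54, 11.83 and 11.77 at time 1. The difference was -0.91 (SE 0.0940, adjusted p = 2.1e-05), with no overlap, and it was -0.56 in spleen and in lung. The cotransporter Slc12a2 rose in lung, to 12.82, 12.32 and 12.49 at time 2 against 11.68, 11.64 and 11.33 at time 1 in A/J, and to 12.55, 11.91 and 12.16 at time 2 against 11.57, 11.17 and 11.25 at time 1 in C57BL/6J (difference 0.93, SE 0.117, adjusted p = 0.000104). Slc38a4 and Slc27a2 were each 0.57 lower at time 2 in lung (differences of -0.57). The hepatocyte markers in lung had a median of 8.19 at time 2 and 9.80 at time 1 in A/J, and of 8.40 at time 2 and 9.44 at time 1 in C57BL/6J, and their part in these values was not tested. The glutamate transporter Slc1a2 fell in spleen (-0.58, adjusted p = 0.000121). Slc39a1, a zinc importer, was higher at time 2 in spleen (0.46) and in lung (0.59) by its main probe set. Its second probe set showed -0.02 in spleen and -0.06 in lung and was called in neither, and the mean of both gave 0.22 and 0.27.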

How the data were processed

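The deposited values are log2 expression levels of Affymetrix arrays, 1 per sample; how the authors made the arrays comparable is not stated in the labels. Per the labels' protocols, about 20 micrograms of total RNA of tissue homogenized in Trizol was used per target. Of the probe sets, 66 controls were left out and 12422 tested. The platform's table gave 1 symbol for 10833, several for 396 and did not list 1193, and only sets with 1 symbol were named. Array runs were read from the names of the scanned arrays. The number of arrays limits the precision.

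Tests used limma 3.58.1 in R 4.3.3 (empirical Bayes) on the log2 values, with Benjamini-Hochberg adjustment over 12422 probe sets and a limit of 0.05. Strain and time were fitted in the 12 arrays of each tissue, tissues in the 24 arrays of time 2, and strain by tissue in all 48. The calculations were tested on simulated data. Deviations of same-numbered arrays of the 2 strains correlated at -0.577 to 0.363, with 7 of 24 over 0.1. Arrays of different strains cannot come from the same mouse, so these values do not bear on shared animals. Between tissues within strain and time, same-numbered arrays correlated at -0.337 to 0.287, with 14 of 72 over 0.1. Deviations within such small groups cannot decide whether same-numbered arrays came from the same mouse. Alternatives were quantile normalization, trend and robust moderation, the replicate number as a block, each array left out, other probe sets and each time alone. Others were a shared spread and a filter on dim probe sets. The spleen arrays with pancreas genes, or the heart arrays with a high Gapdh 3′ end, were also left out. Lung and spleen arrays with a Gapdh 3′ excess over 1 log2 unit were kept.

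Named were up to 8 enriched genes per tissue with the largest difference, up to 6 genes per direction and tissue for strain, 8 for strain by tissue, and 3 per tissue for strain by time and per direction for time. Others are named within their role group. The members, the lists and these rules were chosen with earlier results of these data known.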

Additional observations from a re-analysis of the deposited data

Results flagged for a closer look

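For 8 genes the strain difference itself differed between the 4 tissues with the smallest p-values of the F test of limma over 48 arrays. The adjusted p was 2.68e-12 for Slc15a2, 2.28e-08 for Slc7a5, 5.03e-07 for Slc7a2 and also 5.03e-07 for Slc66a2. It was 1.01e-06 for Slc25a39, 5.41e-06 for Slc6a9, 4.29e-05 for Slc30a9 and 0.000146 for Slc17a1. None of these 8 calls was lost when any 1 array was left out, and those of Slc25a39, Slc6a9 and Slc30a9 were lost in the time 1 arrays alone.

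For 4 genes the strain difference was not the same at time 2 as at time 1 by the interaction test. The change of A/J minus C57BL/6J was -1.08 for Slc4a4, -0.94 for Slc22a5 and -1.08 for Slc25a47 in liver, and 0.99 for Slc4a5 in lung. Each time is also an array run, and the 2 cannot be told apart. Leaving out 1 array ended the call of Slc25a47 in 2 of 12 cases and that of Slc4a5 in 6 of 12, and of Slc4a4 and Slc22a5 in none.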

How the results depend on the processing

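None of the results recomputed under the alternatives was reversed. The spleen differences of Slc2a4 and Slc29a1, whose second probe sets had the opposite sign, were not among these. With the time 1 arrays alone, strain calls numbered 3 in heart and 5 in spleen and strain by tissue calls 16. With the time 2 arrays alone they numbered 18 in liver, 3 in heart and 5 in lung. With 1 spread shared by all 48 arrays they numbered 13 in liver and 3 in heart, and without the spleen arrays with pancreas genes 2 in spleen. Quantile normalization left 7 strain by time calls in liver. Asking for 2 log2 units left 13 genes enriched in liver, 2 in heart, 0 in spleen and 3 in lung. With each array left out in turn, enriched genes numbered 20 in liver, 5 to 6 in heart, 1 to 2 in spleen and 6 in lung. Strain calls numbered 4 to 9 in liver, 5 to 9 in heart, 20 to 27 in spleen and 5 to 16 in lung, and strain by tissue calls 30 to 41. Strain by time calls numbered 2 to 14 in liver, 0 to 2 in heart, 0 to 5 in spleen and 0 to 2 in lung, and time calls 64 to 81 in liver, 33 to 43 in heart, 28 to 40 in spleen and 38 to 55 in lung. The causes were not tested, other than that the single times and the fits without arrays hold fewer samples. With the replicate block, strain calls numbered 5 in liver, 9 in heart, 22 in spleen and 10 in lung, and strain by time calls in liver 9. The block ended the strain calls of Slc23a2 and Slc25a39 in liver, Slc35b2 in spleen and Slc4a5 in lung. Of the named strain results, 228 values under other alternatives kept their call and 68 missed the threshold. Without the C57BL/6J liver array with pancreas genes, liver had 6 strain calls, 7 strain by time calls and 20 enriched genes. Shares of all probe sets were not counted under the alternatives, here or above, apart from the fit without the spleen arrays with pancreas genes (2.88%). Changes in the counts are thus not read as particular to solute carriers. A difference from a group below 7.68, which may be near background, is read as a lower bound. Background was not measured per probe set, so differences of other groups may be lower bounds too. The mean of 27 genes lay in that range, and other genes lay there in some tissues.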
